A study of Mus musculus with 12 samples.

Results

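The ERK feedback genes described here are the dual-specificity phosphatases Dusp1, Dusp4, Dusp5, Dusp6 and Dusp10, the Sprouty genes Spry1, Spry2 and Spry4, and the Sprouty-related genes Spred1 and Spred2. They were chosen by name with earlier results of these data known, so that their counts describe these data and are no independent support. Their probes were found on the arrays through the transcript accession printed beside each probe. Of the 10 genes, 9 had a probe, with 11 probes in all of 41174 measured, and Dusp5 matched none. TM3 cells, an established line of Leydig cells from the testis of an immature Balb/c mouse, had been kept in serum-containing culture medium alone (control) or in medium with 1 mM or 5 mM methoxyacetic acid (MAA), the active metabolite of the solvent ethylene glycol monomethyl ether, for 3, 8 or 24 h. RNA from each of these 6 treatments was hybridized on 2 dual-colour Agilent arrays against control RNA of the same time, giving 12 arrays on 3 slides. Each array held pools of 3 cultures, and the dyes were exchanged between the arrays of a treatment, with RNA of MAA-treated cells labelled green for replicate 1 and red for replicate 2. The 2 arrays of a treatment held separate pools of MAA-treated cultures in opposite dye order. Pool and dye thus cannot be told apart within a pair. It is not stated whether arrays of one time drew on the same control pools. The p-values thus measure the spread between paired arrays, which holds any dye effect and may in part be technical.

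When a growth factor receptor is activated, Ras, Raf and MEK act in turn to phosphorylate ERK, and ERK then switches on transcription of immediate early genes. Some of the genes induced this way encode inhibitors of the same pathway. Dual-specificity phosphatases remove the phosphates from ERK or from the related kinases p38 and JNK, whereas Sprouty and Spred proteins act between the receptor and Raf. In Leydig cells, ERK is activated by luteinizing hormone and by ligands of the EGF receptor.

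The label of the cells was checked against markers of testicular cell types. Of 8 Leydig cell markers, 3 (Cyp17a1, Star and Insl3) were well above background in control RNA on all 12 arrays, and Lhcgr, Cyp11a1 and Hsd3b1 were so on none. Of 6 Sertoli cell markers, 4 were detected in control RNA on all 12 arrays, as was 1 of 5 germ cell markers. None of the 3 macrophage or the 4 endothelial markers was. The endothelial marker Tek and the Leydig marker Nr5a1 were each detected in control RNA on 8 arrays. The summed signal of the Leydig markers ranged from 334 to 1143 in control and from 328 to 853 in MAA-treated RNA, and that of the Sertoli markers from 7271 to 18864 and from 6429 to 34268. That of the germ cell markers was 454 to 1472 and 477 to 1871, and it reached 13.6 and 54.8 for macrophage and 61.3 and 86.9 for endothelial markers. Sums of different lists rest on different probes and are not to be set against each other. The part of these cell types in the results below was not tested. In RNA from whole cultures, fewer cells of a type and less RNA per cell cannot be told apart. Between 61.5% and 70.5% of probes were well above background per channel. The log2 ratios of the array pair correlated over all probes at 0.496 to 0.644 in the 5 mM treatments and at -0.13 (3 h), 0.133 (8 h) and 0.309 (24 h) at 1 mM.

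A gene was called in a treatment at an unadjusted limma p under 0.005 together with a change over 2-fold (5 mM) or over 1.5-fold (1 mM), by its brightest probe. After 3 h with 5 mM MAA, Dusp6, Spry1 and Spry4 rose and no member fell, which is 3 of 9 genes against 2.02% of all probes called up. At 8 h none rose, against 3.06% of probes, and Spry4 fell, against 2.49% of probes called down. At 24 h Dusp6 was called up again, 1 of 9 against 3.85%. With 1 mM MAA, Spry1 rose at 3 h (1 of 9, against 1.32%), Spry1 and Spred2 rose at 8 h (2 of 9, against 1.72%), and limma called none at 24 h (against 3.26% of probes up and 1.41% down), where 5 members had an unadjusted p under 0.05, as did 25.4% of all probes. In the treatments in which no member was called down, 1.74% (5 mM 3 h), 1.77% (5 mM 24 h), 0.627% (1 mM 3 h) and 0.656% (1 mM 8 h) of probes were. Counted by 1 probe a gene, as the members are, 1.91%, 4.07% and 5.23% of genes with a symbol were called up with 5 mM. With 1 mM these shares were 1.5%, 2.59% and 4.53%. The median log2 ratio of the 9 genes was 0.53, 0.13 and 0.22 after 3, 8 and 24 h with 5 mM MAA, against -0.10, -0.04 and 0.03 for all probes. The 1 mM medians were 0.17, 0.40 and 0.17, against 0.02, 0.02 and -0.07.

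By adjusted p alone, with no fold threshold, 7 of the 9 genes were higher after 3 h with 5 mM MAA, 4 after 8 h and 3 after 24 h. The shares of all probes higher by this rule were 11.8%, 15.4% and 14.6%. Of 15972 genes with a symbol, taken by 1 probe each, 2137, 3060 and 2968 were higher. At the lower concentration the members numbered 3, 4 and 1, against 2.71%, 3.4% and 6.66% of probes. Of the 15972 genes, 570, 771 and 1422 were higher there. The Spry4 calls were the least stable. Without replicate 1 of the 5 mM 3 h treatment its log2 ratio was 0.83 and it was no longer called, and leaving out any 1 of 7 other arrays also ended that call. It was lost as well with normexp and loess (log2 0.89), with the deposited log10 ratios (1.20) and with the 6 arrays of 5 mM alone (1.19). With the replicate number, which is also the dye order, as a block it was kept.

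**Figure D1:**
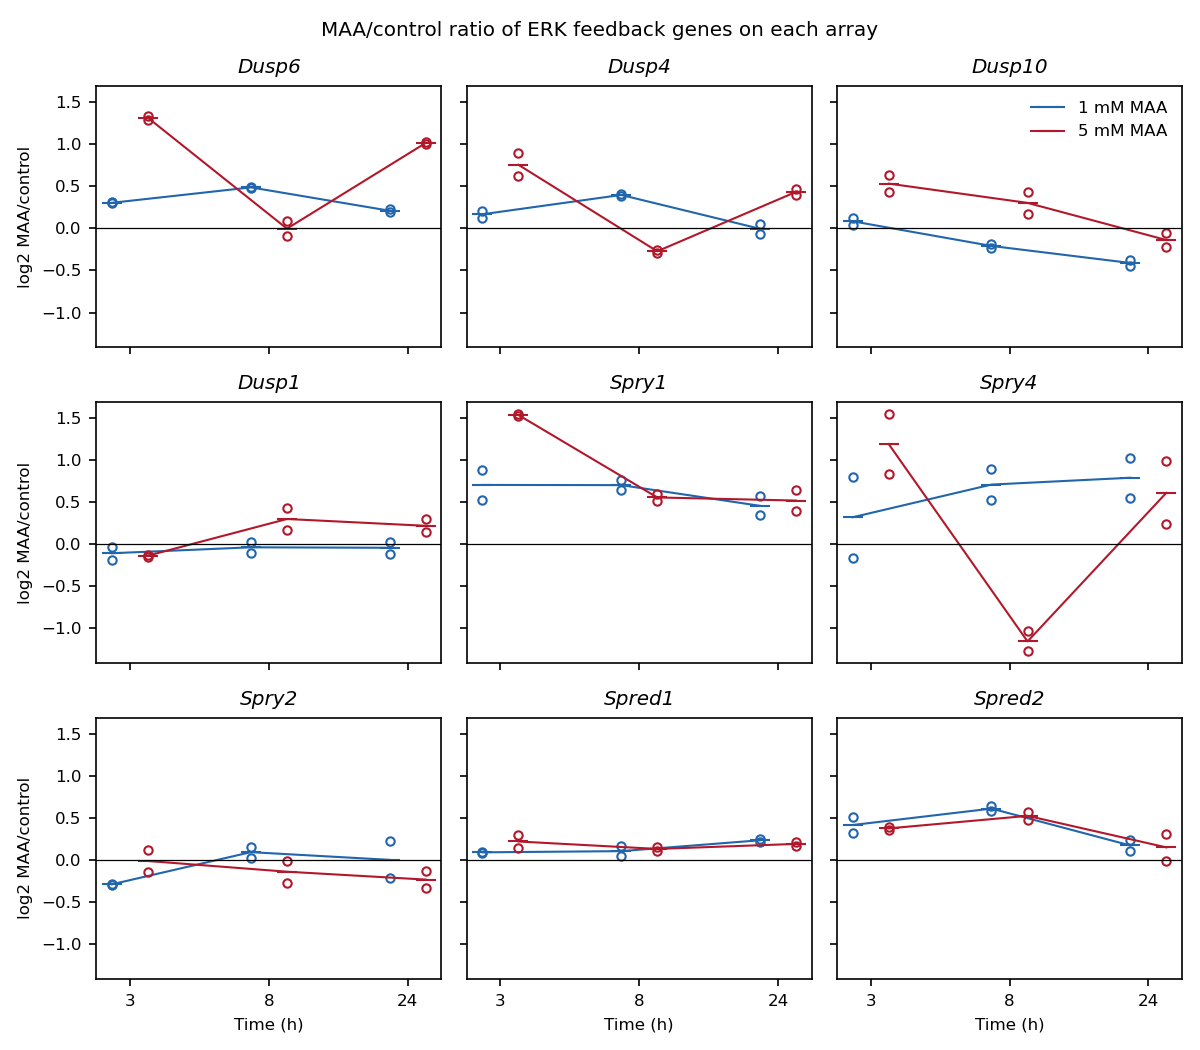
Log2 MAA/control ratio of the 9 measured genes on each array (circles), with the mean of the pair (bars joined by lines), against time in hours on an evenly spaced axis, for 1 mM (blue) and 5 mM MAA (red). Dusp6 and Spry4 at 5 mM were high at 3 h, near or under 0 at 8 h and higher again at 24 h, whereas the 1 mM means stayed between -0.41 and 0.79.

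The sequences just upstream of the called genes Dusp6 and Spry1 are shown beside that of Dusp1, an immediate early gene that was not called. They are the 250 bases before the annotated start in RefSeq, mouse build GRCm38.p6, 5′ to 3′ on the strand of the gene. Such a sequence was given for 8 of the 10 genes, and Dusp4 and Spry4 had none. Capitals mark matches on either strand to the cAMP response element core TGACG, the full element TGACGTCA, which contains that core, the AP-1 site TGANTCA, the ETS-type site AGGAAG, the EGR site GCGNGGGCG and the GC box GGGCGG.
Dusp6, chr10:99262981-99263230, + strand: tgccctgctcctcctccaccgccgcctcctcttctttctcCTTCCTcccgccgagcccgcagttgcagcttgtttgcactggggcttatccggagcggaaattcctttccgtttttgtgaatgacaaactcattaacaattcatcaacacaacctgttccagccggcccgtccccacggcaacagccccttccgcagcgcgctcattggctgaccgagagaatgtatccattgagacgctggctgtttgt
Spry1, chr3:37639697-37639946, + strand: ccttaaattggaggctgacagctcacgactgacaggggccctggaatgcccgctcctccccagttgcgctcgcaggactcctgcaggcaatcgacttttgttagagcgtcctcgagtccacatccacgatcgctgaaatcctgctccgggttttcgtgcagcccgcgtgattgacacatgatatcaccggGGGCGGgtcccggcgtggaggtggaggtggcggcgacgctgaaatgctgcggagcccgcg
Dusp1, chr17:26508473-26508722, - strand: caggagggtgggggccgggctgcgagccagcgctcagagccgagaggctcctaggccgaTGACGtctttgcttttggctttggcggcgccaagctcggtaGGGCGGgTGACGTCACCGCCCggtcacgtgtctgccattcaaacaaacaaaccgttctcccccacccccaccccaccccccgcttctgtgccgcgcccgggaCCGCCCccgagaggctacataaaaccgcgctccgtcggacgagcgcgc

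The Dusp6 stretch held 1 ETS-type match, 210 to 205 bases before the start. The Spry1 stretch held 1 GC box, 60 to 55 bases before the start. Dusp1 had a full cAMP response element 143 to 136 bases before the start, flanked by GC boxes, of which the downstream one runs on from it in the capitals. Among the 8 members, 3 held the ETS-type letters (Dusp5, Dusp6 and Spred2), 3 the element core (Dusp1, Dusp5 and Spred2), 1 the full element and 6 the GC box. Of 32841 such stretches in the table, 29.5%, 17.8%, 1.55% and 32.7% held them. The AP-1 and EGR letters, present in 6.75% and 4.70% of all stretches, were in none of the 8.

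Dusp6 (chr10:99263231-99267489) encodes a cytoplasmic phosphatase selective for ERK. Its log2 ratio with 5 mM MAA was 1.34 and 1.28 on the 2 arrays at 3 h, -0.09 and 0.08 at 8 h, and 1.00 and 1.03 at 24 h. Its 1 mM ratios were 0.31 and 0.30 at 3 h, 0.48 and 0.50 at 8 h, and 0.23 and 0.19 at 24 h. Every array outside the 5 mM 8 h pair thus lay above 0. The 5 mM ratios of 3 h and 24 h did not overlap with any 1 mM ratio. The mean was 2.48-fold at 3 h (log2 1.31, SE 0.0602, limma adjusted p = 2.04e-05) and 2.02-fold at 24 h (log2 1.01, adjusted p = 3.55e-05), both with 5 mM. At 5 mM 8 h the 95% confidence interval of the log2 ratio was -0.14 to 0.14. The 3 h call held under all 21 alternatives tried. The 24 h call lay just over the threshold of 2-fold: without replicate 2 of that treatment the log2 ratio was 0.997 and the gene was not called, nor was it with the slide as a block (0.99).

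Dusp4 (chr8:34807610-34819894), a nuclear phosphatase of ERK, followed the same order at a smaller size. With 5 mM MAA its log2 ratio was 0.62 and 0.89 at 3 h, -0.25 and -0.29 at 8 h, and 0.47 and 0.39 at 24 h. It passed the adjusted p at each of these times (3.94e-04, 0.0302 and 0.00412) but not the fold threshold. With 1 mM MAA it was 0.13 and 0.21, 0.39 and 0.40, and 0.05 and -0.07 at the same times, and only the 8 h value had an adjusted p under 0.05 (0.0292).

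Dusp10 (chr1:184034381-184075636), whose product prefers p38 and JNK as substrates, had log2 ratios of 0.43 and 0.63 at 3 h, 0.44 and 0.17 at 8 h, and -0.05 and -0.22 at 24 h with 5 mM MAA. Its 1 mM ratios were 0.04 and 0.13, -0.19 and -0.23, and -0.38 and -0.45. The 24 h ratios lay under those of 3 h at both concentrations, and this difference passed the test at 5 mM (adjusted p = 0.0108) but not at 1 mM (0.098). Dusp1 (chr17:26505591-26508472), a nuclear phosphatase that acts on p38, JNK and ERK, was called in no treatment. Its ratios lay between -0.19 and 0.43, and only the 5 mM 8 h value, 0.16 and 0.43, had an adjusted p under 0.05 (log2 0.30, SE 0.0874, adjusted p = 0.0357). Replicate 2 was the higher of the pair in all 6 treatments for Dusp1. With the replicate number as a block, Dusp1 was called for 8 h minus 3 h and 24 h minus 3 h at 5 mM. The block also called it for 5 mM minus 1 mM at 8 h and 24 h. Bright probes alone called it for the same time differences at 5 mM, and normexp and loess for 24 h minus 3 h.

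Spry1 (chr3:37639947-37644599) encodes an inhibitor of Ras and Raf activation downstream of receptor tyrosine kinases, and was the only member with log2 ratios above 0.3 on all 12 arrays. With 5 mM MAA they were 1.55 and 1.52 at 3 h, 0.60 and 0.51 at 8 h, and 0.64 and 0.39 at 24 h. The 1 mM ratios were 0.88 and 0.53, 0.76 and 0.64, and 0.57 and 0.34. The pair at 5 mM 3 h stood above all other arrays. The 5 mM 3 h mean was 2.89-fold (log2 1.53, SE 0.105, adjusted p = 7.45e-05) and was called under all 21 alternatives. The 1 mM means were 1.63-fold at 3 h and 1.62-fold at 8 h (adjusted p = 0.0134 and 0.0124). Leaving out replicate 1 of either 1 mM treatment ended its call, at log2 0.53 and 0.64, and normexp and loess ended that of 3 h (0.49).

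Spry4 (chr18:38586247-38601347), another Sprouty gene, had the widest range of the members. Its log2 ratio with 5 mM MAA was 1.55 and 0.83 at 3 h, -1.04 and -1.27 at 8 h, and 0.98 and 0.23 at 24 h. After 1 mM MAA it was 0.80 and -0.16, 0.89 and 0.52, and 1.03 and 0.55. Both 8 h arrays at 5 mM were under every other array. The mean was 2.28-fold higher at 5 mM 3 h (SE 0.288, adjusted p = 0.0203) and 2.23-fold lower at 5 mM 8 h (log2 -1.16, adjusted p = 0.0184). The 8 h call was lost without either array of that treatment or without any of the 1 mM 8 h and 24 h arrays, with log2 ratios of -1.27 to -1.04, and also with normexp and loess (just under 2-fold), the deposited log10 ratios (-1.15), the slide as a block (-0.91) or the 6 arrays of 5 mM alone (-1.16). With the slide as a block, Spry4 was called up at 1 mM 8 h (log2 0.95, adjusted p = 0.0141) and 1 mM 24 h (0.62, 0.0214), and normexp and loess also called it at 1 mM 24 h. The SE is the largest of the members, and replicate 1, with MAA in green, was higher than replicate 2 in 6 of 6 treatments for both Spry4 and Spry1. A second Spry4 probe was too near background to be read, with signals of 1.67 to 14.9. Spry2 (chr14:105891947-105896819) was dim, with signals of 11.0 to 54.5 on all arrays but one, and was not well above background on replicate 1 of the 5 mM 8 h treatment. Its ratios ran from -0.34 to 0.22 and no treatment had an adjusted p under 0.05.

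The Spred proteins bind Ras and Raf and recruit neurofibromin, which inactivates Ras. Spred2 (chr11:19924442-20024026) was higher by a similar size at both concentrations. With 5 mM MAA its log2 ratio was 0.35 and 0.39 at 3 h, 0.48 and 0.57 at 8 h, and 0.31 and -0.01 at 24 h. The 1 mM values were 0.51 and 0.32, 0.58 and 0.64, and 0.23 and 0.11. The 8 h means were 0.52 (adjusted p = 0.00332) and 0.61 (1.53-fold, adjusted p = 0.0115), of which the latter passed the 1.5-fold threshold used at 1 mM. That call was lost without replicate 2 of the 1 mM 8 h treatment (log2 0.58) and with normexp and loess (log2 0.36). Spred1 (chr2:117121071-117182279) had ratios of 0.04 to 0.30 by its brighter probe and -0.04 to 0.40 by its other probe, and was called nowhere.

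To ask whether the response itself changed with time, the ratios of different times were compared. Between 3 h and 8 h with 5 mM MAA, 4 of 9 members dropped, against 2.31% of probes: Dusp6 by 1.31 on the log2 scale (limma adjusted p = 0.00146), Dusp4 by 1.03 (0.00558), Spry1 by 0.98 (0.0150) and Spry4 by 2.34 (0.0225). Between 8 h and 24 h, 3 members rose again, against 4.6% of probes: Dusp6 by 1.02 (adjusted p = 0.00144), Dusp4 by 0.71 (0.00927) and Spry4 by 1.76 (0.0388). These comparisons share the 8 h arrays. Spry1 did not follow, with a log2 difference of -0.04 from 8 h to 24 h and a 95% interval of -0.38 to 0.31. From 3 h to 24 h at 5 mM, Spry1 decreased by 1.02 (adjusted p = 0.00448) and Dusp10 by 0.67 (0.0108), 2 of 9 against 7.42% of probes. The Dusp10 call was lost without replicate 2 of the 5 mM 3 h or 24 h treatment (-0.57 and -0.58). The arrays of slide 3, which held 1 array of each 5 mM time in the same dye order, gave differences of the same sign: -1.20, -1.18, -1.01 and -2.10 from 3 h to 8 h for Dusp6, Dusp4, Spry1 and Spry4, and 0.95, 0.68 and 1.51 from 8 h to 24 h for Dusp6, Dusp4 and Spry4. The slide 3 arrays are also in the fit that made these calls, so the shared sign is no separate check. With 1 mM MAA limma called no member between any times, and 1, 3 and 1 members had an unadjusted p under 0.05 in the 8 h minus 3 h, 24 h minus 8 h and 24 h minus 3 h comparisons. Of all probes, 8.59%, 11% and 16% had such a p, and 0%, 0.576% and 1.85% were called by adjusted p. Spry1 and Spry4 in the 8 h minus 3 h comparison at 5 mM were each no longer called without any 1 of the 4 arrays involved, at log2 values of -1.02 to -0.94 and -2.70 to -1.98. The same was true of Dusp4 in the 24 h minus 8 h comparison, at 0.67 to 0.74, and there also with centring of each array on its median (0.72, adjusted p = 0.0612). Spry4 there was lost without any 1 of 8 arrays, at 1.39 to 2.14.

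The concentrations were compared at each time, each against control RNA of its own arrays. At 3 h, 3 of 9 members were higher with 5 mM than with 1 mM MAA, against 1.51% of probes: Dusp6 by 1.01 on the log2 scale (adjusted p = 0.00506), Spry1 by 0.83 (0.0314) and Dusp4 by 0.59 (0.0341). Of these, Dusp6 was called whichever array was left out, but Spry1 was lost without any 1 of the 12 arrays and Dusp4 without any 1 of 11, at log2 values of 0.65 to 1.01 and 0.45 to 0.72. The Dusp4 call was also lost with the slide as a block (log2 0.57, adjusted p = 0.0659) and with centring of each array on its median (0.69, 0.134), while Spry4 was called with the slide as a block (0.97, 0.0395). At 8 h the order was the opposite for 3 members. Spry4 was lower with 5 mM by 1.86 (adjusted p = 0.0295), Dusp4 by 0.67 (0.0103) and Dusp6 by 0.49 (0.0134), which is 3 of 9 against 5.27% of probes. Dusp10 alone was higher with 5 mM at 8 h, by 0.51 (0.0412, against 4.84% of probes). That call was lost without any 1 of 10 arrays, at 0.38 to 0.64. Those of Spry4 and Dusp4 were lost without any 1 of the 4 arrays of 8 h, at -2.05 to -1.68 and -0.69 to -0.65. The Dusp6 call was lost without replicate 1 at 5 mM or either array at 1 mM, at -0.50 to -0.40. Centring each array on its median left Spry4 as the only member called at 8 h. At 24 h, Dusp6 was higher with 5 mM by 0.81 (adjusted p = 0.00265, 1 of 9 against 4.04% of probes). Within slides the called differences had the same sign: Dusp6 gave 1.03 at 3 h and 0.77 at 24 h on slide 1, and -0.57 and -0.41 at 8 h on slides 2 and 3. The arrays within slides are part of the same fit, so this too is no separate check. For Spred2, whose concentrations were alike at a glance, the 95% interval of the difference was -0.34 to 0.26 at 3 h, -0.38 to 0.21 at 8 h and -0.32 to 0.27 at 24 h.

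**Figure D2:**
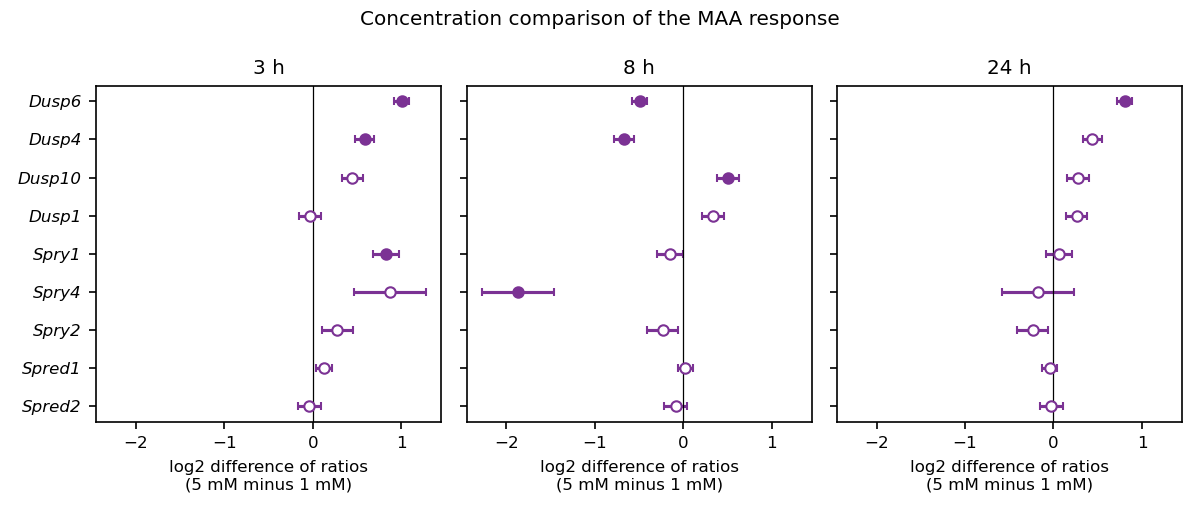
Difference between the log2 MAA/control ratios of 5 mM and 1 mM MAA at 3, 8 and 24 h for the 9 measured genes, as the limma estimate with 1 SE. Filled points passed an adjusted p of 0.05: Dusp6, Dusp4 and Spry1 lay above 0 at 3 h, Dusp6, Dusp4 and Spry4 below 0 and Dusp10 above 0 at 8 h, and Dusp6 above 0 at 24 h.

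A ratio can change because the MAA-treated or the control RNA changed, so the channels were put on a common scale by Aquantile normalization and each probe's level was followed in every RNA. In control RNA, with the 4 channels of a time taken as separate, 5 of 9 members rose between 3 h and 8 h and 1 fell, against 18.4% and 19.6% of probes, and 6 rose and none fell between 3 h and 24 h, against 23.2% and 24.7%. The median log2 change of the 9 genes in control RNA was 0.26 to 8 h and 0.54 to 24 h, against -0.05 and -0.07 for all probes. The steepest rises were those of Spry4 (3.89-fold to 8 h and 13.3-fold to 24 h), Dusp6 (3.58-fold and 7.25-fold) and Spry1 (2.13-fold and 6.41-fold), with adjusted p of at most 4.80e-08 in the separate-channel fit. Dusp4 rose 1.92-fold to 24 h, Dusp1 by 0.47 on the log2 scale and Spred1 by 0.54. At 8 h, Dusp1 was higher by 0.26 and Dusp4 by 0.23, and Spred2 fell by 0.35 (adjusted p = 5.00e-05). The 4 control channels of one time did not overlap with those of the other time in any of these calls. The genes were called on these same channels, so the lack of overlap is no separate support. How many of all probes were free of such overlap was not counted. Control channels of the same time and replicate number lay closer to each other, though. Spry4 at 3 h was at 114 and 118 on the replicate 1 arrays of 5 mM and 1 mM and at 173 on both replicate 2 arrays. Over the members, the median difference was 0.0333 to 0.0511 on the log2 scale between control channels of the same number and 0.12 to 0.217 between those of different numbers. The 4 channels may thus not be 4 independent samples, and shared RNA and shared dye cannot be told apart here, so the p-values of this fit may be too small. With the channels of a time and number averaged, n = 2 a time, 3 members passed limma's adjusted p at 8 h, against 6.43% of probes up: Dusp6 (0.0082), Spry1 (0.0185) and Spry4 (0.0246). At 24 h 5 rose, against 13.8%: Dusp6 (0.00145), Spry1 (0.0016), Spry4 (0.00255), Dusp4 (0.00481) and Dusp1 (0.038). The 8 h changes of Dusp1, Dusp4 and Spred2 (adjusted p = 0.22, 0.224 and 0.0806) and the 24 h change of Spred1 (0.0579) did not pass. On each of the 3 slides, control RNA of 24 h exceeded that of 3 h by 2.79 to 2.90 for Dusp6, 2.66 to 2.72 for Spry1 and 3.62 to 3.80 for Spry4 on the log2 scale.

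The level of Dusp6 in control RNA was 1161 at 3 h (range 1136 to 1219, n = 4 channels), 4160 at 8 h (3871 to 4437) and 8417 at 24 h (7918 to 8998). In 5 mM RNA it was 2931 at 3 h (2791 to 3078, n = 2), 4166 at 8 h (4110 to 4222) and 17046 at 24 h (16175 to 17964), and in 1 mM RNA 1408, 5805 and 9699. The order was control, 1 mM and 5 mM at 3 h, then control and 5 mM at 8 h, which overlapped, then 1 mM at 8 h, and control, 1 mM and 5 mM at 24 h. Dusp6 in 5 mM RNA thus still rose between 3 h and 8 h (1.43-fold, adjusted p = 6.10e-05), while control RNA rose 3.58-fold. In 5 mM RNA 16% of probes rose and 16.7% fell between these times by the same fit. Its p-values for MAA-treated RNA rest on n = 2 channels and on a spread shared with the control channels. They may thus be too small as well, and were not recomputed with averaged channels.

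Spry1 was at 1198, 2547 and 7677 in control RNA, at 1902, 4133 and 10578 in 1 mM RNA and at 3551, 3744 and 10930 in 5 mM RNA after 3, 8 and 24 h. In 5 mM RNA the 3 h and 8 h levels were neighbours and overlapped (3390 to 3720 and 3717 to 3771), with a fold of 1.06 between them (adjusted p = 0.597). The lowest levels were those of control and 1 mM RNA at 3 h, and the highest those of 1 mM and 5 mM RNA at 24 h, which lay close together (10524 to 10632 and 10866 to 10995). Spry4 was at 142, 552 and 1890 in control RNA, at 178, 897 and 3181 in 1 mM RNA and at 320, 249 and 2958 in 5 mM RNA. Its levels in control and 1 mM RNA overlapped at 3 h, as did those of 1 mM and 5 mM RNA at 24 h, and the 5 mM levels of 8 h and 3 h (242 to 256 and 307 to 333) did not differ by the test (adjusted p = 0.277). Spry4 in 5 mM RNA then rose 11.8-fold from 8 h to 24 h (adjusted p = 2.09e-09 in the separate-channel fit, against 16.6% of probes up). Dusp4 in 5 mM RNA was at 1033, 580 and 1623. It fell 1.77-fold from 3 h to 8 h (adjusted p = 7.54e-08 in the separate-channel fit, against 16.7% of probes down), while control RNA went from 614 to 720. Dusp4 was the only member of which the level fell by over 1.5-fold between consecutive times. Dusp1 rose in all 3 kinds of RNA between 3 h and 24 h, from 1087 to 1509 in control, from 1001 to 1455 in 1 mM and from 996 to 1765 in 5 mM RNA. Spred2 was between 62.4 and 87.0 in control channels and between 85.1 and 114 in MAA channels, and these ranges met only at 24 h.

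**Figure D3:**
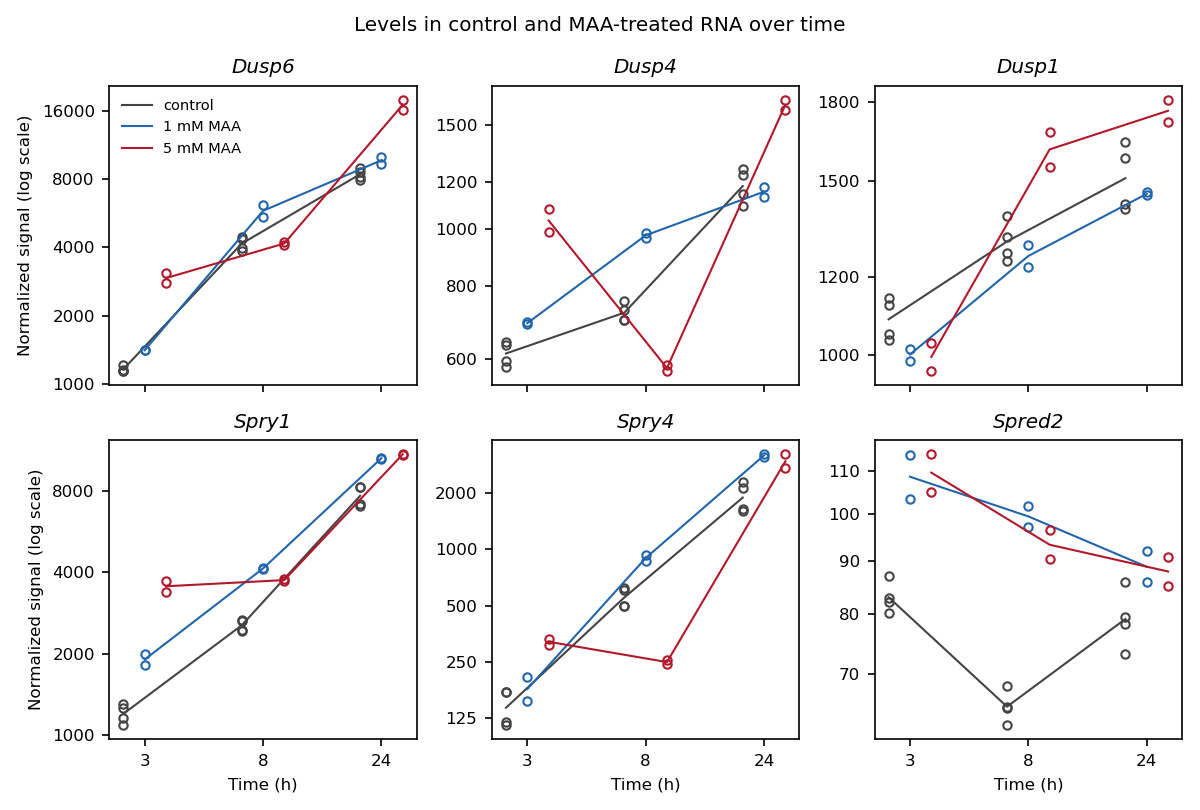
Normalized signal of 6 genes on a logarithmic axis against time in hours (evenly spaced), for control (grey, 4 channels a time), 1 mM (blue) and 5 mM MAA (red, 2 channels each), with lines through the means. Dusp6, Spry1 and Spry4 climbed steeply in control RNA, and in 5 mM RNA the means of 3 h and 8 h were 3551 and 3744 for Spry1, 320 and 249 for Spry4 and 1033 and 580 for Dusp4.

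The members were set beside other genes of the pathway, in lists also chosen with earlier results of these data known. Of 24 genes commonly used as readouts of ERK transcriptional output, 8, 6 and 7 were called up and none down after 3, 8 and 24 h with 5 mM MAA, against 1.91%, 4.07% and 5.23% of genes with a symbol. With 1 mM MAA 4, 3 and 3 were called up, against 1.5%, 2.59% and 4.53%, and 1 was called down at 24 h (Ereg, log2 -0.88, against 0.764%). The median log2 ratio of the list was 0.54, 0.44 and 0.75 with 5 mM and 0.21, 0.33 and 0.30 with 1 mM. Areg, a ligand of the EGF receptor, was 7.53-fold, 10.6-fold and 9.87-fold higher at the 3 times with 5 mM MAA. Egr1, an immediate early transcription factor, was 4.54-fold higher at 3 h (SE 0.119 on the log2 scale, adjusted p = 3.36e-05) and 3.30-fold at 24 h, but not at 8 h (log2 0.23, adjusted p = 0.203). Fos, a subunit of AP-1, had log2 ratios of 1.84, 1.77 and 1.08, Egr2 of 1.70, 1.63 and 1.69, and Hbegf, another EGF receptor ligand, of 1.75, 1.26 and 0.61, of which the last was not called. Egr1, like Dusp6, was thus not called at 5 mM 8 h, whereas Areg, Fos and Egr2 were called at all 3 times. Etv1, an ETS family factor, met the rule at 24 h but was not well above background in either channel of any array, so that no fold is given.

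**Figure D4:**
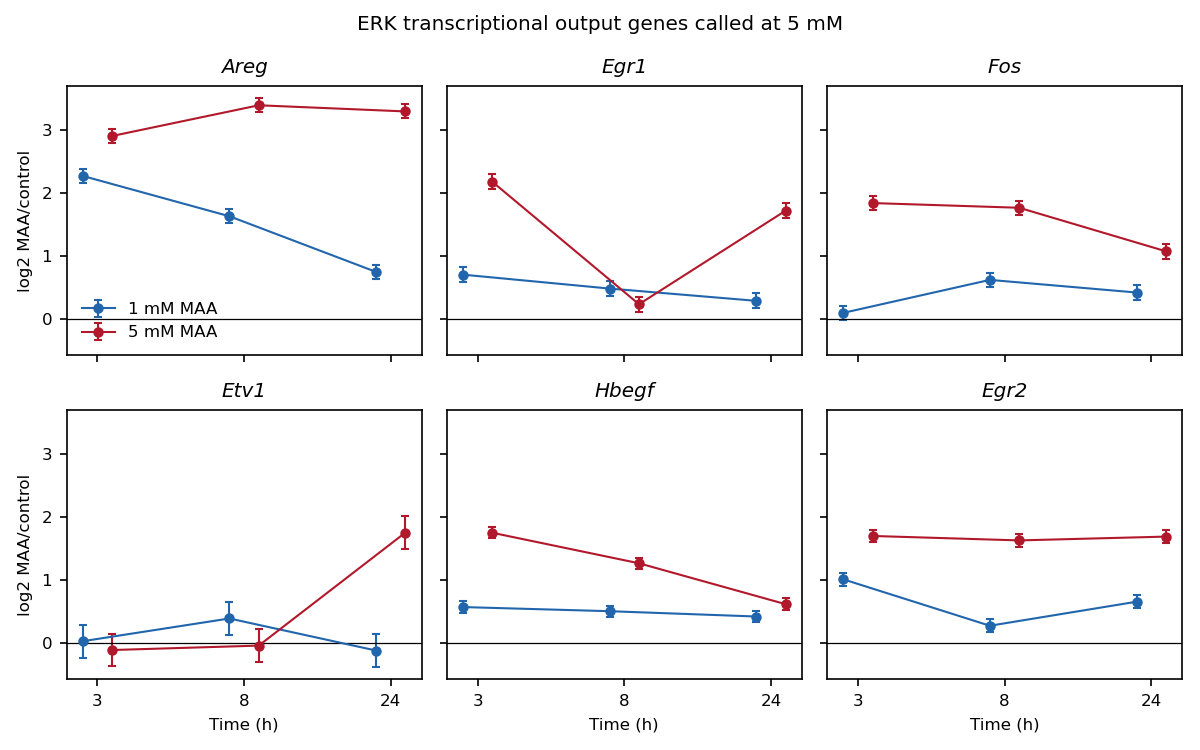
Mean log2 MAA/control ratio with 1 SE against time in hours (evenly spaced) for the 6 ERK output genes with the largest ratios among those called at 5 mM, for 1 mM (blue) and 5 mM MAA (red). Egr1 at 5 mM dipped to 0.23 at 8 h, whereas Areg, Fos and Egr2 stayed above 1.6 at that time; Etv1 was not well above background on any array.

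Among 11 atypical dual-specificity phosphatases, which lack the kinase interaction motif, 1, 2 and 2 were called up with 5 mM MAA at 3, 8 and 24 h and none down, and with 1 mM MAA 1, 0 and 0. The shares of genes with a symbol called up, which also apply to the next list, were the 1.91%, 4.07% and 5.23% and the 1.5%, 2.59% and 4.53% given above. Dusp14 was higher at all 3 times with 5 mM (log2 1.22, 1.36 and 1.12), and at 3 h with 1 mM (0.60). Dusp26 was at -0.91, 1.19 and 1.49 with 5 mM, and its 3 h ratio differed between the arrays (-0.25 and -1.56). Of 12 other inhibitors of receptor and Ras signaling, 1 was called up at 3 h, 1 up at 8 h and 1 down at 24 h with 5 mM MAA, where 1.69% of genes with a symbol were called down at 24 h. Limma called none of the 12 with 1 mM, and 3, 3 and 4 had an unadjusted p under 0.05 there, against 19.2%, 22.1% and 27.8% of genes with a symbol. Errfi1, which binds and blocks the EGF receptor, rose 2.57-fold at 5 mM 3 h (adjusted p = 2.26e-05) and had log2 ratios of 0.74 and 0.69 later. Lrig1, which promotes degradation of that receptor, passed 2-fold at 8 h (log2 0.93, 1.02 and 0.82 over the 3 times), and the adaptor gene Dok2 fell by 1.33 on the log2 scale at 24 h. Limma called none of the 5 other MAP kinase phosphatases or of 21 genes of the Ras-ERK cascade itself in any treatment, and their median log2 ratios with 5 mM MAA were 0.39, 0.27 and 0.28 for the phosphatases and 0.08, 0.10 and 0.09 for the cascade. At an unadjusted p under 0.05 the cascade genes numbered 9, 14 and 11 with 5 mM and 4, 4 and 6 with 1 mM, and the phosphatases 2, 3 and 3 and then 2, 1 and 2. Of all genes with a symbol, 36.4%, 43.8% and 44.9% had such a p with 5 mM MAA and 19.2%, 22.1% and 27.8% with 1 mM.

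The genes most like the leading members were sought among 1254 genes called at 5 mM and well above background on all 12 arrays. Likeness was the Pearson correlation of the log2 ratio over the 12 arrays. These arrays share slides, dye order within a replicate number and, within a time, possibly control pools. The values given are the highest of 1254, among genes called at 5 mM like the members, and are thus high in part by selection. Egr1 was most like Dusp6 (r = 0.955), followed by Phlda1 (0.816) and Zbed5 (0.812). Spry1 was most like Plk3 (0.915), Cdc42ep3 (0.912) and Nol4l (0.883), and Spry4 most like Id2 (0.938), Rnaseh2b (0.879) and Brinp3 (0.854).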

How the data were processed

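RNA of TM3 cells was measured on 12 dual-colour arrays as above. The authors scanned the arrays and deposited, for each, the signal intensity of both channels from Feature Extraction 9.5.3.1, background-subtracted and dye-normalized within the array, and a table of log10 ratios, already turned to MAA over control. Other deposited columns hold spot flags and control types. Control spots and outlier spots (124 to 208 per array) were excluded, 45018 spots gave 41174 probes after averaging, and log2 ratios were not centred. The name column of the scanner output holds accessions, so symbols came from RefSeq for GRCm38.p6, which named 22072 probes of 15972 genes. Several probes of a gene were represented by the one with the highest mean signal.

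Ratios were fitted with limma 3.58.1 in R 4.3.3, over all 12 arrays with 1 coefficient per treatment (6 residual and 1.515 prior degrees of freedom). Treatments were called at the thresholds given above, with the cut-off values of the study's methods. The study applied its p cut-off to p-values of the Rosetta error model on combined dye-swap arrays, and here it was applied to limma p-values. Differences between times or concentrations were called at a Benjamini-Hochberg adjusted p under 0.05 over all probes. Levels came from a separate-channel fit of 41016 probes (within-spot correlation 0.203, 15 residual degrees of freedom). Steps were tested on simulated data. Python 3.11.15 with matplotlib 3.10.9 drew the figures.

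The named genes are all members by every probe, of each pathway list the genes called at any 5 mM treatment (at most the 6 largest), and the 3 genes most like each of the 3 members with the largest called ratios. Members, lists and rules were chosen with earlier results of these data known. Dusp5, Dusp23, Dusp27, Spry3, Cblb, Sos2, Braf, Cd68 and Csf1r matched no probe. The precision is limited by the number of arrays. Alternatives were normexp with an offset of 50 and loess, the deposited log10 ratios, centring, bright probes alone, outlier spots kept, replicate or slide as a block, the arrays of a concentration alone, another call rule, any probe of a gene, quantile normalization of the channels, control channels of a time and replicate number averaged, and each array left out.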

Additional observations from a re-analysis of the deposited data

Results flagged for a closer look

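In 17 comparisons the response of a member differed between times or between concentrations at an adjusted p under 0.05 of limma's contrast, and each is given here as the difference of log2 MAA/control ratios. From 3 h to 8 h with 5 mM MAA the differences were -1.03 for Dusp4, -1.31 for Dusp6, -0.98 for Spry1 and -2.34 for Spry4. From 8 h to 24 h they were 0.71 for Dusp4, 1.02 for Dusp6 and 1.76 for Spry4, and from 3 h to 24 h -0.67 for Dusp10 and -1.02 for Spry1. For 5 mM minus 1 mM they were 0.59 for Dusp4, 1.01 for Dusp6 and 0.83 for Spry1 at 3 h. At 8 h they were -0.67 for Dusp4, -0.49 for Dusp6, 0.51 for Dusp10 and -1.86 for Spry4, and at 24 h 0.81 for Dusp6.

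The Dusp6 level in control RNA at 3 h was 1219 on replicate 1 of the 5 mM 3 h treatment and 1136 to 1147 in the other 3 control channels. The gap to the nearest channel was 0.861 of the range, over Dixon's 95% critical value for 4 values. The 27 groups of 4 control channels of the members were examined, and chance passes this value in about 1 group in 20.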

How the results depend on the processing

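No result reversed under any alternative. Of the values of single genes, 568 kept their side of the threshold and 112 lost their call, and 83 counts moved by over 1.5 times while 406 did not. The calls of control RNA over time held in 14 of 15 alternatives, among them the slide as a block. Averaging the control channels of a time and replicate number left 3 of 6 at 8 h and 5 of 6 at 24 h. Both of these were added after seeing the data. By adjusted p with no fold threshold, the members called in either direction were 7, 6 and 3 after 3, 8 and 24 h with 5 mM MAA (in place of 3, 1 and 1). With 1 mM they were 3, 4 and 2 (1, 2 and 0). Of the 6 at 5 mM 8 h, 4 were higher. Of genes with a symbol, 27.2%, 35.5% and 36.6% passed with 5 mM and 5.66%, 7.17% and 13.5% with 1 mM. At 5 mM 24 h the share of members, 33.3%, was thus under that of all genes. The ERK output genes by this rule were 16, 16 and 19 of 24, then 8, 10 and 14, against the same shares of genes with a symbol. At any 5 mM treatment 4 of 5 other MAP kinase phosphatases, 7 of 11 atypical phosphatases, 6 of 12 other feedback genes and 15 of 21 cascade genes passed, against 51.4%. With normexp and loess the members called were 0 at 5 mM 8 h and 0, 1 and 1 at 1 mM 3, 8 and 24 h, and the ERK output genes 1 at 1 mM 3 h and 1 at 24 h. The deposited ratios gave 0 at 5 mM 8 h, 4 for 24 h minus 3 h at 5 mM (in place of 2) and 2 for the concentrations at 24 h (in place of 1), where normexp also gave 2. With the slide as a block 0 were called at 5 mM 8 h, 0 at 5 mM 24 h, 1 at 1 mM 24 h and 4 for 24 h minus 3 h at 5 mM. The 6 arrays of a concentration alone gave 0 at 5 mM 8 h, 0 for both 8 h minus 3 h and 24 h minus 8 h (in place of 4 and 3) and 1 for 24 h minus 3 h, with fewer residual degrees of freedom by construction. Restricting the fit to bright probes gave 5 for 24 h minus 8 h, 5 for 24 h minus 3 h, 1 for 24 h minus 3 h at 1 mM and 2 for the concentrations at 24 h. Centring left 1 of 4 for the concentrations at 8 h. The share of all probes called was not counted for any of these refits or for those described below. Bright probes alone are also a smaller set over which p is adjusted. The counts thus show how the calls depend on the processing and are no result about the members. The cause of these changes was not tested.

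Leaving out each array in turn gave 2 to 3 members at 5 mM 3 h, 0 to 1 at 5 mM 8 h and 24 h and at 1 mM 3 h, 1 to 2 at 1 mM 8 h and 0 at 1 mM 24 h. At 5 mM the range was 2 to 4 for 8 h minus 3 h, 1 to 3 for 24 h minus 8 h and 1 to 3 for 24 h minus 3 h, and 0 for each at 1 mM. Between concentrations it was 1 to 2 at 3 h, 0 to 4 at 8 h and 1 to 2 at 24 h. For the ERK output genes it was 8 to 9, 6 to 7 and 6 to 7 with 5 mM, and 3 to 4, 2 to 4 and 4 with 1 mM. The other lists gave 0, 1 to 2, 2 to 3 and 0 to 1, and the control levels 6 and 6.

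The replicate number, which is also the dye orientation, was tried as a block. Deviations of same-numbered arrays from their treatment means correlated at 0.075 to 0.515 (median 0.375) over the 15 pairs of treatments. Arrays of one number, which share a dye orientation by design, thus deviated together. Within a treatment, replicate 2 deviates as much as replicate 1 with the opposite sign, so it adds no further correlation. The block was to be used only with every correlation over 0.1, which 1 of 15 missed, and the fit without it was kept. The replicate block added Spry4 at 1 mM 8 h (log2 0.71), at 1 mM 24 h (0.79, the 1 member called there) and for the concentrations at 3 h (0.87), and gave 4 for 24 h minus 3 h at 5 mM and 3 for the concentrations at 24 h. The block also called Dusp1 for 8 h minus 3 h and 24 h minus 3 h at 5 mM, and for the concentrations at 8 h and 24 h. For Spry4 the adjusted p with the block was 7.06e-04 at 5 mM 3 h and 5.81e-04 at 5 mM 8 h.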
